A study of Mus musculus with 24 samples.

Results

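Livers of wild-type mice fasted for 24 h were compared with livers of wild-type mice fed freely, across all genes that the arrays measured. The comparison used the 12 arrays of wild-type mice, which came from 10 of the 22 animals in the series. All mice were male, of the C57Bl/6J background and 8 weeks old, lived on a 12 h light and 12 h dark cycle, and were killed at ZT16, 16 h after lights on. The groups used here were 5 fed and 5 fasted mice labelled PPARaLWT, the liver wild-type of a Ppara line, written WT below. A second genotype, PPARaLKO, lacks Ppara in the liver and is written LKO. Its 6 fed and 6 fasted mice entered the estimate of the spread and served to test whether a WT change differed between genotypes. The labels count 22 animals, with 1 fed and 1 fasted WT animal each hybridised on a pair of arrays, whereas the series description speaks of 24 mice, 6 to a group. The numbers on the animals were followed here, and both arrays of an animal were averaged before any test.

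The labels name no Cre driver and do not say which part of Ppara was deleted. Whole liver was homogenised, so each value is a sum over hepatocytes, endothelium, macrophages and other cells. All 15 hepatocyte markers, among them Alb (serum albumin), Apoh and Hpd, were measured. All 15 endothelial and all 14 macrophage markers were measured as well, so being measured does not test the tissue label. Markers of these and other cells are described further on. Ppara had a level of 5.84 ± 0.21 (SD, n = 5) in fed WT, 6.48 ± 0.13 (n = 5) in fasted WT, 5.17 ± 0.37 (n = 6) in fed LKO and 5.60 ± 0.12 (n = 6) in fasted LKO. The signal in LKO livers was thus lower but not absent, and a probe outside the deleted part would check nothing.

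A level here is the log2 processed signal of a gene's probe minus the 75th percentile of that array, and 0 is therefore the signal below which 75% of the probes of an array lie. Levels compare the same probe between animals and not different genes. A change is the mean fasted level minus the mean fed level given with its standard error (SE), which the fit takes from all 22 animals. Rose and fell are written only of changes with an adjusted p below 0.05 (limma, Benjamini-Hochberg over 17331 genes). Nothing in the labels says when or how the animals were batched, so the p-values measure the spread within the 4 groups of these 22 animals, WT and LKO.

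The liver is the organ that keeps blood fuels available between meals. When food is withheld, insulin falls while glucagon and glucocorticoids rise, adipose tissue releases fatty acids, and the liver oxidises them, turns part of them into ketone bodies and makes glucose from amino acids, lactate and glycerol. Transcription follows: the nuclear receptor PPARalpha, cAMP-responsive factors, forkhead factors and the glucocorticoid receptor switch on genes of fat use and glucose output, while SREBP-1c and ChREBP, which drive fat synthesis after a meal, lose activity. Fed livers also make more secretory protein and grow, and these programmes depend on nutrients and insulin. ZT16 lies in the dark phase, when mice with food eat, so the fed group was sampled in its feeding period.

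Nearly equal numbers of genes moved each way. Of 17331 genes tested, 7645 changed with fasting, which was 44.1%, with 3986 genes higher (23.0%) and 3659 lower (21.1%). Most shifts were small: 60.9% of the genes that changed did so by less than 1.5-fold. At least 2-fold differences were found in 647 genes that rose (3.73%) and 553 that fell (3.19%), at least 4-fold ones in 129 and 122, at least 8-fold ones in 40 and 37, and at least 16-fold ones in 16 and 12. In 5914 genes (34.1%) every fasted animal lay outside the range of the fed animals. The 2-fold counts depended on how low signals were treated, because 384 genes rose and 299 fell that far after normexp background correction, and 408 and 370 in the authors' deposited table of log2 values. The median change over all genes was 0.01, and it is the value against which the medians of gene groups below are set. Counts of members that rose or fell are likewise to be read beside the 44.1% of all genes.

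**Figure D1:**
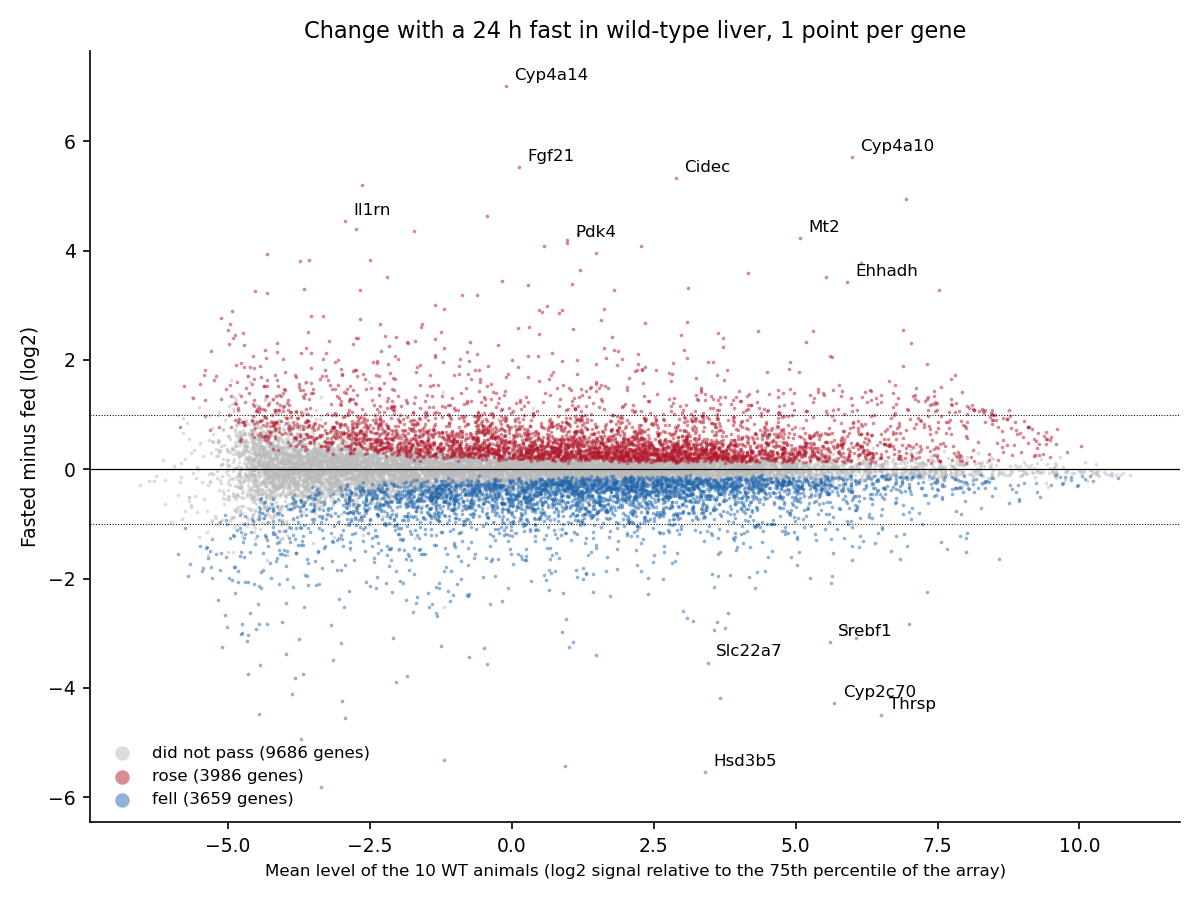
Fasting change in WT (log2, vertical axis) against the mean level over the 10 WT animals (log2 relative to each array's 75th percentile, horizontal axis) for all 17331 genes, with genes that rose in red, genes that fell in blue, dotted lines at a 2-fold change and some genes named. Genes that changed at least 2-fold lie on both sides of level 0, and the largest rise, that of Cyp4a14, starts from a low fed level.

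Animals of one group were closer to each other than to the other group. The median absolute difference between animals over all genes was 0.13 to 0.20 for pairs of fed animals and 0.12 to 0.18 for pairs of fasted animals, against 0.27 to 0.33 for a fed and a fasted animal. Arrays of the same animal differed by a median of 0.0852 and 0.118. On the first principal component of the WT animals, with 58.3% of the variance, the fed animals lay between -49.2 and -34.7 and the fasted animals between 37.0 and 46.0. Fed replicate 5 lay lowest on the second component (8.56% of the variance) at -30.4, and fed replicate 4 lay highest on the third (6.80%) at 34.0. Counts of calls were therefore also made without these 2 fed animals, which left 6675 genes, 3558 higher and 3117 lower.

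Sequence upstream of the start sites was searched for known elements. Promoter windows from RefSeq (GRCm38.p6), from 250 bases before the start to 50 after it, were found for 12273 of the tested genes. Motifs were searched on both strands of the 250 bases before the start only. The ER stress element (CCAAT and CCACG with 9 bases between them), which binds NF-Y together with ATF6 or XBP1, was present in 9 of the 24 genes of protein folding in the endoplasmic reticulum that had a window (37.5%), and in 0.171% of all genes with one. The E2F motif TTTCGCGC, found in genes of DNA replication, was present in 3 of 31 cell cycle genes (9.68%) and in 0.497% of all. The amino acid response element (TGATG and AAT with 1 base between them), to which ATF4 binds, was present in 4 of 27 genes of the integrated stress response (14.8%) and in 0.611% of all. These windows are short, and a match is a description of the letters only.

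Of the 40 genes with the largest changes, 4 held one of these motifs of 7 or more letters, and the windows of Fgf21, which rose, and Mycn, which fell, are shown. Those of Hspa5, Pdia6, Creld2, Mcm6 and Cdk1 were added, with values in view, because they carry the elements of the secretory and cell cycle groups, most of whose measured members fell. Each line gives the 250 bases before the start, 5′ to 3′ on the strand of the gene, with the motif on either strand in capitals.
Fgf21, chr7:45615491-45615740, minus strand, amino acid response element: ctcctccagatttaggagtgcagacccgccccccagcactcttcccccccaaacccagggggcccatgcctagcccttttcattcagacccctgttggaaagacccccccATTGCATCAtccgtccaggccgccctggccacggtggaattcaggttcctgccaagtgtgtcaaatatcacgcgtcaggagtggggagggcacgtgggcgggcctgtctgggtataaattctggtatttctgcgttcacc
Mycn, chr12:12941837-12942086, minus strand, E2F motif: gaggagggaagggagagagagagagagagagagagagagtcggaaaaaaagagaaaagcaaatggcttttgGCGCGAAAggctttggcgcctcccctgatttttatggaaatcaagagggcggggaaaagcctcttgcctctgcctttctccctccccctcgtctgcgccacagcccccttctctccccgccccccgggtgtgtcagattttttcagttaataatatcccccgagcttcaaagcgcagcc
Hspa5, chr2:34771840-34772089, plus strand, ER stress element: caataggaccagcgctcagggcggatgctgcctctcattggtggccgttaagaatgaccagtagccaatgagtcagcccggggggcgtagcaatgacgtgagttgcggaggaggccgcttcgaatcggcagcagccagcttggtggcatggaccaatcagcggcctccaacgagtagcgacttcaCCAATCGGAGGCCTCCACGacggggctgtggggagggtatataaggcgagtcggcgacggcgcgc
Pdia6, chr12:17266339-17266588, plus strand, ER stress element: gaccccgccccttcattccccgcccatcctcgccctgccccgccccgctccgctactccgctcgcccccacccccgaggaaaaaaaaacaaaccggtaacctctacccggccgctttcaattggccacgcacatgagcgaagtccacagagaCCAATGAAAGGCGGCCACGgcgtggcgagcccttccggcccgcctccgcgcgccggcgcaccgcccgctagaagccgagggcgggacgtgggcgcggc
Creld2, chr15:88819396-88819645, plus strand, ER stress element: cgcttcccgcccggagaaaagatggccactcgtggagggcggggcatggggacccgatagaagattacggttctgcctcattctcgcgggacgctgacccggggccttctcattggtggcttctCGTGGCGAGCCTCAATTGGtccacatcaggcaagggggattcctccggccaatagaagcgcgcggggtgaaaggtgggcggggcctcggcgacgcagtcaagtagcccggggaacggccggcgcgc
Mcm6, chr1:128359706-128359955, minus strand, E2F motif: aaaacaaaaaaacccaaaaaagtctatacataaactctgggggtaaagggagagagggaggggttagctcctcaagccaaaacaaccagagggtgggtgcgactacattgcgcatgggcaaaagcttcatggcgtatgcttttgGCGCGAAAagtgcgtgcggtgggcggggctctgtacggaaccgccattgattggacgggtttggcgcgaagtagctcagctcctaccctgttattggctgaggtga
Cdk1, chr10:69352913-69353162, minus strand, E2F motif: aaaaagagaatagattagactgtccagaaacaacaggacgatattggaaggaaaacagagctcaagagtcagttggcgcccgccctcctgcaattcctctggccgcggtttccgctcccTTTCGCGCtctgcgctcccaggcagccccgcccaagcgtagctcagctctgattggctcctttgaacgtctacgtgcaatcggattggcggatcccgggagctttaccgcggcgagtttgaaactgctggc

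The element of Hspa5 begins 65 bases before the start, that of Pdia6 98 bases and that of Creld2 126 bases. The other genes of that group with the element were Calr, Canx, Derl3, Dnajc3, Hsp90b1 and Syvn1. A DR1 site (a pair of AGGTCA in the same direction with 1 base between them, the class of element that PPARalpha binds with RXR) was present in 1 of 440 genes that rose at least 2-fold (0.227%) and 7 of 12273 genes (0.057%). With 1 mismatch allowed it was present in 4 of the 440 (0.909%), in 3 of 381 genes that fell at least 2-fold (0.787%) and in 0.538% of all. In the mitochondrial, peroxisomal and omega-oxidation lists it was present in none of the searched stretches of 250 bases. The sterol element (TCAC and CCAC with 1 base between them) was present in 9 of the 381 that fell (2.36%), in 8 of the 440 that rose (1.82%) and in 1.25% of all. In the cholesterol list it was present in 1 of 18 genes (5.56%), Hmgcs1, whose change did not pass. The protein folding list held it in 2 of 24 genes (8.33%).

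Mitochondrial beta-oxidation rose in each of its 20 measured genes, at a median change of 0.98, and 10 of them rose at least 2-fold. These enzymes shorten fatty acids in the mitochondrial matrix after the carnitine shuttle has brought them in. The shuttle itself rose: Cpt1a, which loads fatty acids onto carnitine and sets the rate, was 5.99, 5.77, 6.05, 6.21 and 5.84 in fed and 7.68, 7.66, 7.44, 7.42 and 7.41 in fasted replicates 1 to 5, a change of 1.55 (SE 0.10) (adjusted p = 7.92e-10). No fasted animal overlapped with a fed one. Slc22a5, the carnitine importer of the cell membrane, changed by 2.04 (SE 0.15), Slc25a20, which carries acylcarnitines across the inner membrane, by 1.26 (SE 0.10), and Cpt2 by 1.03 (SE 0.09). Crat, carnitine acetyltransferase, lay at 2.65, 2.06, 2.99, 2.73 and 2.51 in fed replicates 1 to 5 and at 4.78, 4.88, 4.98, 4.83 and 4.70 in fasted ones (change 2.25, SE 0.17, adjusted p = 3.91e-09). Its 5 fasted values lay within 0.28 of each other, while fed replicate 2 was the lowest of the fed animals.

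Within the cycle, Acadm, the medium-chain dehydrogenase, had levels of 6.50, 6.13, 6.35, 6.70 and 6.21 in the 5 fed and 7.89, 7.77, 7.93, 7.81 and 7.89 in the 5 fasted animals, which is a change of 1.48 (SE 0.09) with adjusted p = 2.55e-10. The groups were again apart, and fed replicate 4 was the highest and fed replicate 2 the lowest fed animal. Acadl changed by 1.30 (SE 0.08), Hadhb by 1.28 (SE 0.07) and Hadha by 0.92 (SE 0.07). The smallest changes in the list were those of Etfa (0.22) and Acaa2 (0.23), an electron carrier subunit and the last enzyme of the cycle. Etfdh, which passes electrons on to ubiquinone, changed by 1.09 (SE 0.09). The list's median was 0.83, 0.97 and 1.12 on the 3 slides taken one at a time.

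Peroxisomes shorten very long and branched fatty acids, and 20 of 23 measured genes rose, 1 fell, and the median change was 0.89. Ehhadh, the bifunctional enzyme of the peroxisomal cycle, rose from 4.22, 3.99, 4.34, 4.30 and 4.10 in fed to 7.48, 7.68, 7.77, 7.45 and 7.66 in fasted replicates 1 to 5 (3.42, SE 0.13, adjusted p = 5.54e-13). The lowest fasted animal lay 3.11 above the highest fed one. Abcd2, an importer of very long-chain acyl-CoA, changed by 1.83 (SE 0.27), Crot, which sends shortened chains out as carnitine esters, by 1.43 (SE 0.16) and Pex11a, which drives peroxisome division, by 1.20 (SE 0.15). Pecr, a trans-enoyl-CoA reductase that works in chain elongation, was the member that fell (-0.28, SE 0.09), a call lost without fasted replicate 2 (-0.20), and Scp2 (0.08) and Amacr (0.41) did not pass.

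Acyl-CoA thioesterases split fatty acids from coenzyme A, and 5 neighbouring genes of this kind, chosen with values in view, all rose. Acot3 was 0.65, -1.67, 1.49, -0.75 and 1.48 in fed and 4.81, 3.84, 4.29, 4.48 and 4.21 in fasted replicates 1 to 5, a change of 4.08 (SE 0.52) (adjusted p = 2.37e-06). The fasted animals spanned 0.97 and the fed ones 3.16, with fed replicates 2 and 4 lowest, and the groups did not overlap. Acot2 changed by 3.95 (SE 0.20), Acot5 by 4.09 (SE 0.27), Acot1 by 3.52 (SE 0.28) and Acot4 by 1.93 (SE 0.18). These genes are close copies that lie side by side, and the array's probes may not tell them fully apart.

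Omega-oxidation starts from the methyl end of the chain in the endoplasmic reticulum, and 5 of 11 measured genes rose while 1 fell. That share was 54.55%, beside 44.1% of all genes. Cyp4a14 lay at -2.39, -4.98, -3.34, -1.81 and -5.53 in fed replicates 1 to 5 and at 3.46, 3.71, 3.36, 3.40 and 3.09 in fasted ones (change 7.02, SE 0.64, adjusted p = 3.96e-08). Every fasted animal lay near the same level, whereas the fed animals spread over 3.72 and only 3 of the 5 were well above background. Cyp4a10 had levels of 4.39, 1.63, 3.34, 4.63 and 1.67 in the 5 fed and 8.93, 8.87, 8.80, 8.85 and 8.79 in the 5 fasted animals, which is a change of 5.71 (SE 0.57) with adjusted p = 1.23e-07. Fed replicates 2 and 5 were lowest and 1 and 4 highest in both genes. Cyp4a31, whose sequence is close to that of Cyp4a10, showed fed levels of 5.69, 2.86, 4.66, 6.03 and 3.13 against 9.40, 9.37, 9.48, 9.43 and 9.38, and Aldh3a2, which oxidises the aldehydes formed, changed by 1.45 (SE 0.20). Cyp4f14 was the member that fell (-1.65, SE 0.10). Cyp4a12a, a male-specific member of the family, lay at 5.54, 5.78, 5.41, 5.83 and 5.44 in fed and at 5.75, 6.02, 6.07, 5.64 and 5.58 in fasted replicates 1 to 5, and the groups overlapped.

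Ketone body genes moved both ways: 6 of 11 rose and 5 fell, at a median of 0.40 and a mean of -0.23. Acat1, which joins acetyl-CoA units at the start of the route, rose from 4.77, 4.45, 4.62, 4.79 and 4.59 in fed to 5.78, 5.73, 5.63, 5.64 and 5.80 in fasted replicates 1 to 5 (1.07, SE 0.08, adjusted p = 4.56e-09). Bdh1, which turns acetoacetate into hydroxybutyrate, changed by 0.64 (SE 0.11). The genes that fell included ones that use ketone bodies or acetate, and also an exporter of ketone bodies. Aacs, which activates acetoacetate for lipid synthesis in the cytosol, was 5.26, 6.12, 4.37, 4.23 and 5.09 in fed and 2.13, 1.52, 2.39, 2.91 and 2.11 in fasted replicates 1 to 5, a change of -2.80 (SE 0.37) (adjusted p = 3.56e-06), with fed replicate 2 the highest and fasted replicate 4 the highest of its group. Oxct1, the enzyme of ketone body use, changed by -0.73 (SE 0.11), Acss2 by -1.0 (SE 0.24), Bdh2 by -1.16 (SE 0.13) and Slc16a6, a carrier that exports ketone bodies, by -1.44 (SE 0.18). Slc16a5, another monocarboxylate carrier that was not in the list, lay at -1.02, -1.63, -0.20, -1.11 and -0.98 in fed replicates 1 to 5 and at 3.84, 3.35, 2.97, 3.07 and 3.32 in fasted ones (change 4.30, SE 0.33, adjusted p = 4.2e-09), with no overlap.

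**Figure D2:**
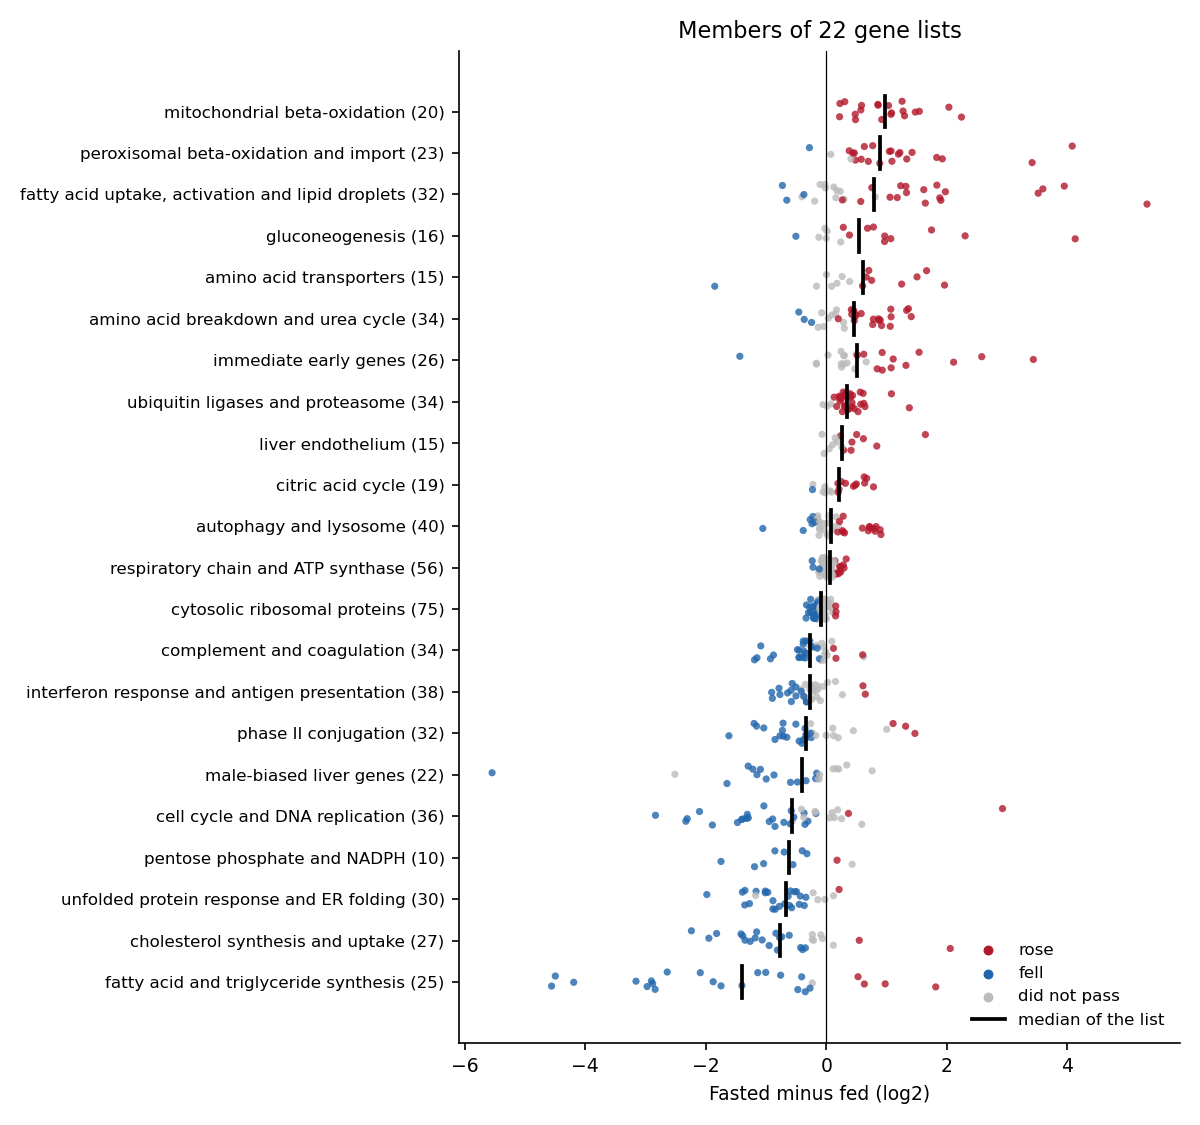
Fasting change of each measured member (log2, points) of selected gene groups, with the group's median as a bar. All members of mitochondrial beta-oxidation lie above 0, most of fatty acid and triglyceride synthesis below it, and other groups hold members on both sides.

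Fat uptake and storage in droplets also rose, in 18 of 32 genes against 3 that fell, at a median of 0.79. Cidec, which makes lipid droplets fuse, had levels of 0.24, -0.40, 0.10, 0.80 and 0.36 in the 5 fed and 5.52, 6.30, 5.69, 4.96 and 5.28 in the 5 fasted animals, which is a change of 5.33 (SE 0.29) with adjusted p = 6.97e-11. Fasted replicate 2 was highest, and the gap between the groups was 4.16. Its probe lies on chromosome 6 (mm9, 113374693 to 113374752), in the mouse build in which the array gives its positions. G0s2, an inhibitor of the main triglyceride lipase, rose from 2.96, 1.82, 1.95, 2.35 and 2.75 in fed to 6.61, 6.48, 5.90, 5.44 and 5.37 in fasted replicates 1 to 5 (3.60, SE 0.39, adjusted p = 3.65e-07), and Pnpla2, which is that lipase, was 3.99, 3.63, 4.12, 4.13 and 3.92 in fed and 5.64, 6.14, 5.84, 5.70 and 5.65 in fasted replicates 1 to 5, a change of 1.84 (SE 0.11) (adjusted p = 1.42e-10). The lipase and its inhibitor were thus both higher in all 5 fasted animals. Plin2, the chief droplet coat protein, changed by 1.89 (SE 0.12), Plin4 by 1.90 (SE 0.30), Plin5 by 1.18 (SE 0.25) and Hilpda, another lipase inhibitor, by 1.65 (SE 0.19). Cd36, a fatty acid receptor of the cell surface, lay at 0.06, -0.29, -0.35, -0.10 and 0.15 in fed replicates 1 to 5 and at 1.86, 1.58, 2.24, 1.41 and 2.28 in fasted ones (change 1.98, SE 0.20, adjusted p = 1.13e-07). Abhd5 (the activator of Pnpla2, -0.65), Lpl (lipoprotein lipase, -0.73) and Acsl4 (-0.37) fell, the last in a call lost when any of 8 single animals was left out (-0.37 to -0.29).

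Lipoprotein genes moved less: 6 of 21 rose and 1 fell (2 without fed replicate 2 or fasted replicate 3). That share was 33.3%, beside 44.1% of all genes. Apoa4, an apolipoprotein of triglyceride-rich particles, had levels of 5.32, 5.56, 6.13, 6.22 and 6.21 in the 5 fed and 9.06, 9.40, 9.19, 9.11 and 9.10 in the 5 fasted animals, which is a change of 3.29 (SE 0.15) with adjusted p = 5.3e-12, with a gap of 2.84 between the groups. Angptl4, an inhibitor of lipoprotein lipase, changed by 1.44 (SE 0.21). Its partner Angptl8, listed on the array as Gm6484 and known to be induced by feeding, fell from 5.55, 5.54, 4.92, 3.89 and 5.89 in fed to 3.70, 3.55, 2.86, 3.07 and 2.75 in fasted replicates 1 to 5 (-1.98, SE 0.45, adjusted p = 0.0013), and the lowest fed animal, replicate 4, lay above the highest fasted one. Apob (0.04) and Mttp (0.03), which build the particles, did not pass, and a dimmer Apob probe rose (0.28).

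Oxidative metabolism downstream of fatty acids changed unevenly. Of 19 citric acid cycle genes 12 rose and 1 fell at a median of 0.21. Dlst, a subunit of the oxoglutarate dehydrogenase complex, changed by 0.67 (SE 0.08), and the gene that fell was Aco1 (-0.23, SE 0.06), a cytosolic enzyme that also binds iron-responsive RNA. Among 56 genes of the respiratory chain and ATP synthase 11 rose, 3 fell (1 without fasted replicate 3 or 4) and the median was 0.07. The share that changed was 25%, beside 44.1% of all genes. The largest change among these 56 was that of Ndufs7 (0.33, SE 0.06). Mitochondrial carriers held 18 members higher and 5 lower of 29, with the largest change in Slc25a34 (3.38, SE 0.20), followed by Slc25a22, a glutamate carrier (1.96, SE 0.13), and Slc25a47 (1.51, SE 0.17). The uncoupling proteins Ucp2 and Ucp3 changed by 1.1 (SE 0.11) and 1.09 (SE 0.12).

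Fatty acid and triglyceride synthesis showed the reverse: 20 of 25 genes fell, 15 of them at least 2-fold, 4 rose and the median change was -1.40. Srebf1, which encodes SREBP-1, was 6.95, 7.31, 7.18, 7.08 and 7.37 in fed and 4.2, 3.43, 4.03, 4.34 and 4.11 in fasted replicates 1 to 5, a change of -3.16 (SE 0.13) (adjusted p = 1.63e-12). Fed values lay within 0.42 of each other and far above the fasted ones, at a probe on chromosome 11 (mm9, 60013214 to 60013273). Thrsp, a lipogenic gene that responds to carbohydrate and thyroid hormone, lay at 8.58, 9.14, 8.77, 8.16 and 9.10 in fed replicates 1 to 5 and at 4.18, 3.57, 4.15, 4.81 and 4.56 in fasted ones (change -4.50, SE 0.28, adjusted p = 3e-10). Fed replicate 4 was the lowest of its group in this gene. Fasn, the fatty acid synthase, had levels of 7.93, 9.00, 8.34, 7.44 and 9.34 in the 5 fed and 5.34, 5.43, 5.72, 5.76 and 5.59 in the 5 fasted animals, which is a change of -2.84 (SE 0.27) with adjusted p = 7.95e-08, and the same animal was again lowest.

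Scd1, the desaturase that makes oleate, fell from 7.55, 8.31, 8.72, 6.56 and 9.00 in fed to 5.37, 5.5, 4.76, 5.78 and 4.32 in fasted replicates 1 to 5 (-2.88, SE 0.38, adjusted p = 3.33e-06), with fed replicate 4 only 0.78 above the highest fasted animal. Elovl6, which elongates palmitate, was 4.82, 5.76, 5.08, 3.92 and 6.47 in fed and 2.50, 2.46, 2.32, 1.93 and 2.32 in fasted replicates 1 to 5, a change of -2.90 (SE 0.33) (adjusted p = 6.8e-07). Acaca, Acly and Mlxipl (the gene of ChREBP) changed by -1.88 (SE 0.22), -2.09 (SE 0.30) and -1.40 (SE 0.11). Pnpla3, an acyl hydrolase gene controlled by SREBP-1c, lay at -1.95, 1.03, -0.31, -4.08 and 1.99 in fed replicates 1 to 5, of which 4 were well above background, and at -5.27, -4.53, -4.93, -6.42 and -4.99 in the fasted animals, none of which was. Its level was at least 13.7-fold lower in fasted livers, and the fitted change was -5.41 without fed replicate 4 and -3.90 without fed replicate 5. The members that rose were Mogat1 (1.82, SE 0.19), Elovl5 (0.98, SE 0.16), Dgat1 (0.63, SE 0.08) and Fads2 (0.53, SE 0.12), of which Mogat1 and Dgat1 esterify glycerides and Elovl5 and Fads2 make polyunsaturated chains.

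Cholesterol synthesis fell in 19 of 27 genes, with 2 members higher and a median of -0.77. Fdps, farnesyl diphosphate synthase, lay at 6.47, 7.15, 6.53, 5.93 and 6.99 in fed replicates 1 to 5 and at 4.49, 4.06, 4.85, 4.79 and 5.13 in fasted ones (change -1.95, SE 0.26, adjusted p = 3.91e-06), and fed replicate 4 was the lowest and replicate 2 the highest of the fed animals. Sqle changed by -1.18 (SE 0.19), Nsdhl by -1.82 (SE 0.23) and Stard4, a sterol carrier, by -1.41 (SE 0.14). Srebf2, which encodes the main activator of the pathway, did not pass at its brightest probe (0.12, SE 0.07) and rose at another (0.33). The paired sterol sensors moved in opposite directions: Insig1 changed by -1.35 (SE 0.18), while Insig2, whose liver transcript is known to rise in fasting, had levels of 4.38, 4.2, 5.01, 5.02 and 4.45 in the 5 fed and 6.49, 6.91, 6.68, 6.57 and 6.71 in the 5 fasted animals, which is a change of 2.06 (SE 0.19) with adjusted p = 4.13e-08. Hsd17b7 was the other member that rose (0.55, SE 0.10).

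NADPH for lipid synthesis comes from the pentose phosphate route and malic enzyme, and 8 of 10 such genes fell. Me1, Tkt and Pgd changed by -1.75 (SE 0.36), -1.19 (SE 0.16) and -1.04 (SE 0.18). G6pdx, the first enzyme of the route, fell from 0.33, 0.83, 0.98, 0.16 and 1.27 in fed to -0.10, -0.18, 0.08, 0.15 and 0.13 in fasted replicates 1 to 5 (-0.70, SE 0.16, adjusted p = 0.00139), where fed replicate 4 came within 0.01 of the highest fasted animal. Pgls was the member that rose (0.18, SE 0.05).

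Of 18 glycolytic genes 6 fell and 4 rose (55.6%, beside 44.1% of all genes). Pklr, the liver pyruvate kinase of the last step, was 2.19, 2.72, 2.45, 1.33 and 3.20 in fed and -0.87, -0.47, -0.64, -0.54 and -0.44 in fasted replicates 1 to 5, a change of -2.97 (SE 0.35) (adjusted p = 9.59e-07). Pfkfb3 changed by -1.70 (SE 0.23) and Khk, which phosphorylates fructose, by -1.51 (SE 0.18). The middle enzymes Gapdh (-0.06), Pgk1 (-0.01) and Eno1 (-0.14) did not pass, and Ldha, lactate dehydrogenase, was among those that rose (0.65, SE 0.11).

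Glycogen genes did not move as a block, with 6 of 14 higher and 4 lower. Ppp1r3g, a regulatory subunit that directs phosphatase to glycogen, lay at -0.27, 0.73, -1.19, -3.0 and 0.58 in fed replicates 1 to 5 and at 2.65, 5.05, 3.12, 2.68 and 1.63 in fasted ones (change 3.65, SE 0.87, adjusted p = 0.00178). Without fed replicate 4 its change was 3.06. Pygl, which breaks glycogen down, changed by -1.5 (SE 0.15) and Gbe1, the branching enzyme, by -1.12 (SE 0.16).

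Gluconeogenesis and the supply of its carbon rose in 10 of 16 genes, with 1 lower and a median of 0.54. Pck1, which makes phosphoenolpyruvate, had levels of 8.35, 7.76, 8.43, 8.47 and 8.43 in the 5 fed and 9.28, 9.19, 9.29, 9.22 and 9.30 in the 5 fasted animals, which is a change of 0.97 (SE 0.12) with adjusted p = 1.52e-06. Fed replicate 2 stood below the other 4 fed animals, which lay within 0.12 of each other. G6pc, the glucose-6-phosphatase, lay at 7.45, 7.61, 6.96, 6.76 and 7.53 in fed and 7.51, 7.33, 7.55, 7.74 and 7.38 in fasted replicates 1 to 5, and its change (0.24, SE 0.26, adjusted p = 0.476) did not pass. The group ranges overlapped. Pdk4, which blocks pyruvate oxidation, rose from -0.89, -1.66, -0.59, -1.53 and -0.81 in fed to 2.79, 3.75, 3.41, 2.94 and 2.29 in fasted replicates 1 to 5 (4.13, SE 0.30, adjusted p = 2.63e-09). Ppargc1a, a coactivator of the gluconeogenic and oxidative programmes, was -0.04, 0.18, 0.78, 0.54 and -0.07 in fed and 2.22, 2.83, 1.72, 1.62 and 1.73 in fasted replicates 1 to 5, a change of 1.75 (SE 0.25) (adjusted p = 1.03e-05). Slc2a2, the glucose transporter of hepatocytes, was the member that fell (-0.50, SE 0.18), a call lost when any of 5 single animals was left out (-0.50 to -0.46).

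Amino acid breakdown and the urea cycle rose in 22 of 34 genes and fell in 3, at a median of 0.46. Cps1, the first enzyme of the urea cycle, lay at 7.11, 7.06, 7.15, 6.94 and 6.51 in fed replicates 1 to 5 and at 7.85, 8.00, 7.64, 7.60 and 7.59 in fasted ones (change 0.78, SE 0.13, adjusted p = 6.37e-05). Asl, Arg1 and Ass1 changed by 1.06 (SE 0.11), 0.88 (SE 0.09) and 0.46 (SE 0.10), but Otc, in the same cycle, fell (-0.36, SE 0.09). Got1, a cytosolic aminotransferase, had levels of 5.70, 5.93, 6.22, 5.81 and 5.71 in the 5 fed and 8.44, 8.66, 7.89, 7.92 and 7.99 in the 5 fasted animals, which is a change of 2.31 (SE 0.19) with adjusted p = 1.12e-08, with fasted replicates 1 and 2 above the others. Oat, ornithine aminotransferase, rose from 7.37, 7.02, 7.34, 7.74 and 6.65 in fed to 8.80, 8.80, 8.53, 8.30 and 8.73 in fasted replicates 1 to 5 (1.41, SE 0.17, adjusted p = 1.38e-06), and fed replicate 5 was lowest. Cth, Aass, Tdo2, Sds and Tat, which degrade cysteine precursors, lysine, tryptophan, serine and tyrosine, changed by 1.37 (SE 0.19), 1.34 (SE 0.16), 1.08 (SE 0.10), 1.07 (SE 0.21) and 0.90 (SE 0.12). Glud1 (-0.24) and Haao (-0.45) were the others that fell.

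Amino acid carriers rose in 8 of 15 cases and fell in 1 (60%, beside 44.1% of all genes). Slc7a2, which takes up arginine and lysine, was 2.48, 2.32, 2.50, 2.77 and 1.99 in fed and 4.25, 4.35, 3.99, 3.90 and 3.92 in fasted replicates 1 to 5, a change of 1.67 (SE 0.16) (adjusted p = 6.62e-08). Slc1a4 changed by 1.25 (SE 0.15) and Slc38a4 by 0.75 (SE 0.09). The exception was Slc3a1, a subunit of a cystine carrier, which fell by 1.85 (SE 0.42).

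Methionine and one-carbon genes divided between methyl transfer and folate. Mat1a, which makes S-adenosylmethionine, changed by 1.72 (SE 0.11) and Ahcy by 1.23 (SE 0.13). Mthfd2, a mitochondrial folate enzyme, changed by -1.83 (SE 0.40), Tyms by -0.56 (SE 0.08) and Gamt, which makes creatine, by -1.05 (SE 0.19). In all 8 of 22 rose and 7 fell. Serine synthesis stood out for a single animal: Phgdh lay at -3.40, -2.59, -3.13, -3.58 and 0.12 in fed replicates 1 to 5 and at -3.37, -3.60, -3.91, -3.73 and -4.18 in the fasted animals, and Psat1 at -1.66, -0.57, -1.66, -3.20 and 1.72 and -2.24, -2.46, -2.38, -1.59 and -2.98. Fed replicate 5 was far above every other animal in both genes, and neither change passed.

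Hormones and signals sent out by the liver moved with 10 of 34 secreted factors higher and 9 lower (55.9%, beside 44.1% of all genes). Fgf21, a hormone released in fasting, lay at -2.89, -3.47, -3.42, -3.12 and -0.31 in fed replicates 1 to 5 and at 3.43, 3.15, 2.75, 2.52 and 2.62 in fasted ones (change 5.53, SE 0.56, adjusted p = 1.5e-07). Fed replicate 5 lay 2.58 above the next fed animal and still below all fasted ones, and without it the change was 6.12. Gdf15, a stress hormone, changed by 1.93 (SE 0.25), and Igfbp1, which binds IGF-1 and is repressed by insulin, had levels of 6.51, 6.87, 6.18, 5.74 and 6.46 in the 5 fed and 8.11, 8.71, 8.12, 8.09 and 8.37 in the 5 fasted animals, which is a change of 1.93 (SE 0.45) with adjusted p = 0.00168. Inhbb and Inhbe, activin subunits, changed by 2.93 (SE 0.26) and 1.26 (SE 0.19), while Inhba, another subunit, changed by -2.21 (SE 0.22) and Inhbc by -0.84 (SE 0.16). Bmp6, which signals iron load, changed by 1.0 (SE 0.17). Ihh, a hedgehog ligand, fell from 0.21, 0.13, 0.45, 0.26 and 0.79 in fed to -2.84, -3.37, -3.44, -1.96 and -2.71 in fasted replicates 1 to 5 (-3.23, SE 0.26, adjusted p = 1.07e-08), with no overlap.

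Insulin and glucagon signalling genes were 11 of 31 higher and 7 lower (58.1%, beside 44.1% of all genes). Grb10, an inhibitor of the insulin receptor, changed by -1.39 (SE 0.23), Pik3r1, a regulatory subunit of PI3-kinase, by -1.15 (SE 0.12) and Pde4b, which degrades cAMP, by -1.11 (SE 0.28). Trib3, an inhibitor of AKT, was 0.73, 0.14, 0.76, 0.26 and 1.27 in fed and 2.46, 3.20, 2.64, 2.75 and 2.29 in fasted replicates 1 to 5, a change of 2.04 (SE 0.24) (adjusted p = 1.03e-06). Irs2, an insulin receptor substrate known to rise with fasting, did not pass here (0.49, SE 0.29, adjusted p = 0.172). Fkbp5, a glucocorticoid-responsive gene, changed by 1.08 (SE 0.16) and Ddit4 by 0.98 (SE 0.26).

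Of 19 genes of the growth hormone axis 5 rose and 4 fell, a share of 47.4% that was near the 44.1% of all genes. Igf1, the main output of the axis, depended on the probe. The brightest Igf1 probe lay at 7.57, 7.57, 7.54, 7.51 and 7.25 in fed and 7.71, 7.61, 7.41, 7.43 and 7.63 in fasted replicates 1 to 5, and its change did not pass (0.07, SE 0.08). Its other 2 probes, dimmer but well above background in all 10 animals, both fell, by 1.24 (SE 0.48) and by 0.72 (SE 0.28), with adjusted p = 0.0448 and 0.0414 in limma. Ghr, the growth hormone receptor, changed by -0.75 (SE 0.12). Cish, a feedback inhibitor that STAT5 switches on, lay at 1.91, 3.14, 3.42, 4.02 and 1.97 in fed replicates 1 to 5 and at 1.32, -0.07, 0.14, -0.20 and 1.63 in fasted ones (change -2.33, SE 0.60, adjusted p = 0.00344), with fed replicates 1 and 5 and fasted replicates 1 and 5 nearest to each other. Onecut1 (HNF6) had levels of 5.24, 5.75, 3.91, 4.94 and 3.01 in the 5 fed and 2.90, 1.46, 1.33, 0.89 and 2.40 in the 5 fasted animals, which is a change of -2.78 (SE 0.56) with adjusted p = 0.000383. Cux2, a female-biased repressor, was well above background in no fed animal and in 4 fasted ones, at -4.94, -4.99, -5.21, -5.43 and -4.64 and -1.88, -4.2, -3.35, -2.55 and -3.14.

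Sex-biased genes were counted in these male livers: 13 of 22 male-biased genes fell and none rose, while 7 of 17 female-biased genes rose and 2 fell. These shares were 59.1% and 52.9%, beside 44.1% of all genes, and the median changes were -0.41 and 0.12. Hsd3b5, a male-specific steroid dehydrogenase, fell from 6.22, 6.39, 5.95, 6.16 and 6.17 in fed to 0.49, 0.35, 0.91, 1.04 and 0.37 in fasted replicates 1 to 5 (-5.55, SE 0.30, adjusted p = 6.97e-11). The groups lay 4.91 apart, and its probe lies on chromosome 3 (mm9, 98422576 to 98422635). Selenbp2, Slco1a1 and Cyp7b1 changed by -1.65 (SE 0.15), -1.30 (SE 0.18) and -1.09 (SE 0.21). Among the female-biased genes, Hamp2 and Ptgds were the ones that fell (-2.29 and -2.29).

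Of 44 transcription factor genes 18 rose and 14 fell (72.7%, beside 44.1% of all genes), and of 35 nuclear receptors 9 rose and 5 fell, a share of 40% that was near the 44.1%. Ppara itself rose (0.64, SE 0.14), as did Nr1i3, the xenobiotic receptor CAR (1.26, SE 0.13), and Nr3c1, the glucocorticoid receptor, fell (-0.59, SE 0.09). All 3 Foxa genes, which keep liver chromatin open, fell (Foxa1 -0.91, Foxa2 -0.69, Foxa3 -0.67). Klf11, Hes1, Tox and Cebpd changed by 1.86 (SE 0.19), 1.65 (SE 0.32), 1.70 (SE 0.22) and 1.33 (SE 0.14), and Hes6 by -2.17 (SE 0.15). Mycn was -0.75, -0.79, -0.30, -1.48 and 0.60 in fed and -4.23, -3.55, -3.72, -2.36 and -4.28 in fasted replicates 1 to 5, a change of -3.09 (SE 0.49) (adjusted p = 3.24e-05). Fed replicate 5 was the highest and fasted replicate 4 the highest of its group.

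Immediate early genes, which respond to stimuli within minutes, were higher in 12 of 26 cases and lower in 1. That share was 50%, beside 44.1% of all genes. Gadd45b lay at -1.24, -2.07, -2.18, -2.30 and -1.69 in fed replicates 1 to 5 and at 1.99, 1.38, 1.59, 1.15 and 1.62 in fasted ones (change 3.44, SE 0.29, adjusted p = 1.41e-08), without overlap. Egr1 had levels of -1.85, 0.76, -1.92, -1.5 and -1.39 in the 5 fed and 1.41, 1.98, 1.78, 0.07 and 1.79 in the 5 fasted animals, which is a change of 2.58 (SE 0.46) with adjusted p = 0.000108, and fed replicate 2 lay within the fasted range. Ctgf, Btg2, Fos and Junb changed by 2.12 (SE 0.22), 1.32 (SE 0.33), 1.11 (SE 0.30) and 1.08 (SE 0.24). Gadd45a was the member that fell (-1.43, SE 0.37).

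Of the 23 clock genes measured, 7 rose and 3 fell at this single time of day. That share, 43.5%, was near the 44.1% of all genes. Ciart, a repressor of the clock, rose from -0.45, -0.32, -0.69, -1.0 and -0.34 in fed to 1.25, 1.34, 1.15, 0.89 and 0.96 in fasted replicates 1 to 5 (1.68, SE 0.21, adjusted p = 2.04e-06), Nr1d1 changed by 1.02 (SE 0.22) and Arntl by 0.74 (SE 0.22). Per2 and Bhlhe40 were among those that fell (-0.80 and -0.70). Dbp (0.05) and Per1 (0.31) did not pass, and with 1 time point a shift of phase cannot be told apart from a change of level.

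Protein folding in the endoplasmic reticulum fell in 24 of 30 genes, 8 of them at least 2-fold, and the median change was -0.66. Hspa5, the chaperone BiP, was 7.75, 7.61, 7.61, 7.82 and 7.39 in fed and 7.02, 7.26, 7.07, 6.68 and 7.09 in fasted replicates 1 to 5, a change of -0.61 (SE 0.18) (adjusted p = 0.00992). The fasted animals were all below the fed ones, by as little as 0.13. Sdf2l1, a cofactor of BiP, lay at 3.59, 3.52, 3.39, 3.54 and 2.92 in fed replicates 1 to 5 and at 1.40, 1.60, 1.51, 0.82 and 1.72 in fasted ones (change -1.98, SE 0.35, adjusted p = 0.000117). Hyou1, Manf, Creld2 and Pdia6 changed by -1.39 (SE 0.22), -1.35 (SE 0.24), -1.27 (SE 0.36) and -1.16 (SE 0.10). Xbp1, the transcription factor of the response, had levels of 6.72, 7.07, 6.37, 6.70 and 6.46 in the 5 fed and 6.07, 6.22, 6.03, 5.80 and 6.04 in the 5 fasted animals, which is a change of -0.63 (SE 0.14) with adjusted p = 0.00079, and Ern1, the sensor that splices its messenger RNA, changed by -1.01 (SE 0.13). Sec61b and Sec61a1 of the protein-conducting channel changed by -1.35 (SE 0.07) and -0.97 (SE 0.08). Atf6, another sensor, was the only member of the list that rose (0.21, SE 0.08), and that call was lost without fed replicate 2 (0.18), fasted replicate 2 (0.19) or fasted replicate 5 (0.18).

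Of the 9 genes printed or named above for their ER stress element, Calr, Canx, Creld2, Dnajc3, Hspa5, Pdia6 and Syvn1 fell (Calr in a call lost when any of 7 single animals was left out, -0.37 to -0.28), while Derl3 (-1.17, SE 0.52) and Hsp90b1 (-0.22, SE 0.13) did not pass. Bhlha15 (MIST1), a factor of secretory cells, lay at 0.10, 0.30, -1.18, -1.19 and -0.33 in fed replicates 1 to 5 and at -6.39, -6.41, -6.61, -5.45 and -6.55 in fasted ones, where no animal was well above background, so its level was at least 15.8-fold lower.

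The integrated stress response slows translation and switches on ATF4 targets, and its genes went both ways, 10 higher and 9 lower of 32. That share was 59.4%, beside 44.1% of all genes. Asns, asparagine synthetase, rose from 2.00, 3.21, 2.83, 1.59 and 4.12 in fed to 5.38, 5.46, 3.04, 4.53 and 3.92 in fasted replicates 1 to 5 (1.72, SE 0.64, adjusted p = 0.035). Fasted replicates 3 and 5 lay within the fed range, and fed replicate 5 was the highest fed animal. The call was lost when any of 6 single animals was left out (1.42 to 1.74). Vldlr and Sesn2 changed by 1.33 (SE 0.28) and 0.56 (SE 0.09), while Chac1, a glutathione-degrading target of the pathway, changed by -1.58 (SE 0.39) and Ddit3 by -0.66 (SE 0.21). Atf4 itself did not pass (-0.08, SE 0.09). Of the genes with an amino acid response element, Fgf21 belongs to this list and rose, and Aars (-0.20), Gars (-0.04) and Nupr1 (-0.50) did not pass. Among the transfer RNA synthetases Lars rose (0.37, SE 0.09) and Cars, Mars, Nars, Tars and Wars fell (changes from -0.55 to -0.24, that of Mars lost without fed replicate 2, fed replicate 5 or fasted replicate 3, at -0.22 to -0.18).

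Proteasome genes rose almost as a body, by little each: 31 of 34 genes of the proteasome and its ubiquitin ligases were higher, none was lower, and the median was 0.35. Psmd4, a ubiquitin receptor of the proteasome cap, was 6.22, 6.07, 6.18, 6.25 and 6.15 in fed and 6.79, 6.95, 6.81, 6.72 and 6.82 in fasted replicates 1 to 5, a change of 0.64 (SE 0.06) (adjusted p = 5.37e-08). Its fed animals spanned 0.18 and its fasted ones 0.23. Psmd3 and Psmc4 changed by 0.62 (SE 0.05) and 0.61 (SE 0.06). The largest changes belonged to Fbxo21 (1.38, SE 0.14) and Fbxo32, the ligase known as atrogin-1 in wasting muscle (1.08, SE 0.15). Psma3 (0.08), Psma4 (0.01) and Psme1 (-0.05) did not pass, although the 2 dimmer probes of Psma3 rose (0.33 and 0.16).

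Of 40 autophagy and lysosome genes, 16 rose and 6 fell (55%, beside 44.1% of all genes), at a median of 0.07. Sqstm1, the cargo receptor p62, changed by 0.83 (SE 0.08), Gabarapl1 by 0.81 (SE 0.09), Map1lc3b by 0.79 (SE 0.07), Ctsl by 0.91 (SE 0.10) and Tfeb, the lysosomal regulator, by 0.60 (SE 0.10). Ulk2 showed the largest fall (-1.05, SE 0.07).

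The 75 cytosolic ribosomal protein genes shifted little, with 28 lower, 3 higher (Rpl36 0.16, Rps27 0.16 and Rps28 0.16) and a median of -0.09. The share that changed, 41.3%, was near the 44.1% of all genes. No member moved 2-fold, and the largest fall was -0.33 (Rpl12). Ribosome biogenesis and translation factors held 4 members higher and 8 lower of 35, with Eif4ebp3, a repressor of cap-dependent translation, changed by 1.44 (SE 0.25). The share of this list that changed, 34.3%, was below the 44.1% of all genes.

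**Figure D3:**
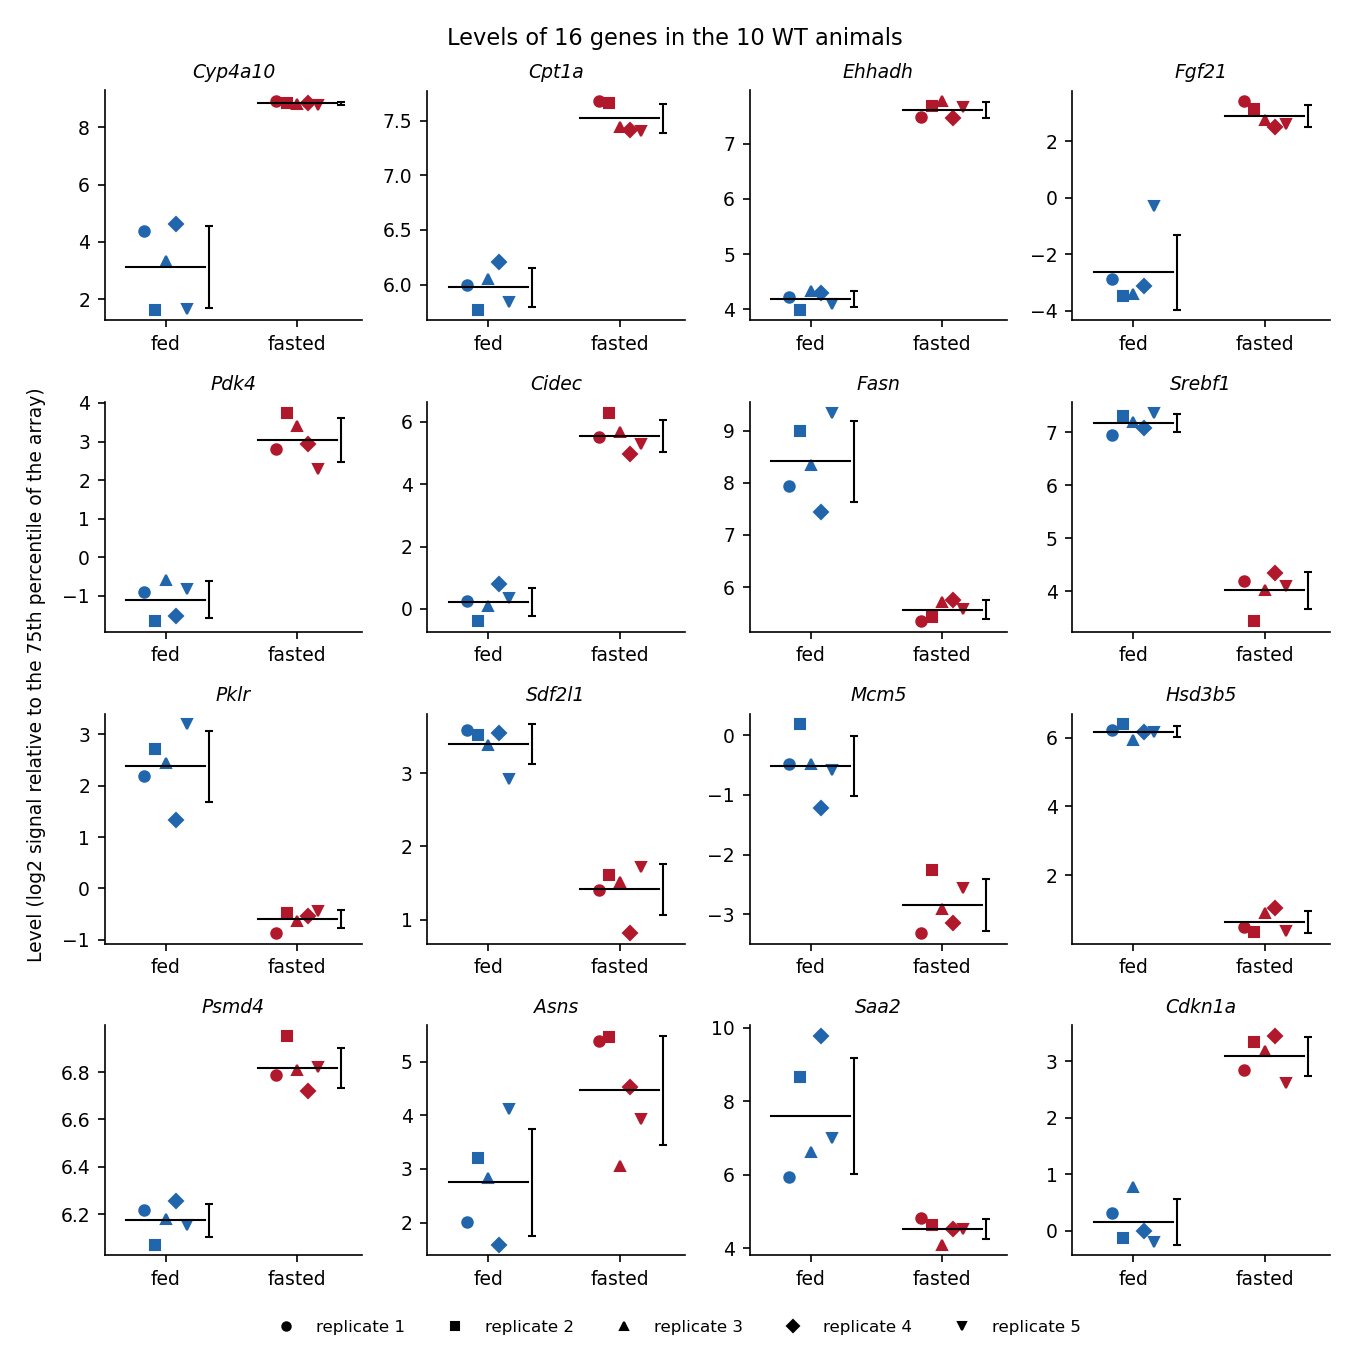
Level of 16 genes in each of the 5 fed and 5 fasted WT animals (vertical axis, log2 signal relative to the array's 75th percentile, 1 marker shape per replicate number), with the group mean as a line and the SD as a bar. Fed and fasted animals overlap in Asns, and fed animals spread more than fasted ones in Cyp4a10, Fasn and Saa2.

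Drug and bile acid metabolism changed gene by gene. Of 31 cytochrome P450 genes of families 1 to 3, 8 rose and 8 fell (51.6%, beside 44.1% of all genes). Cyp2c70, which makes the muricholic acids of mice, lay at 8.10, 8.34, 7.78, 7.62 and 7.27 in fed replicates 1 to 5 and at 3.76, 2.42, 2.94, 4.13 and 4.47 in fasted ones (change -4.28, SE 0.31, adjusted p = 2.24e-09), at a probe on chromosome 19 (mm9, 40227969 to 40228028). Cyp2c55, Cyp1a2 and Cyp2c38 changed by -2.52 (SE 0.22), -1.48 (SE 0.19) and -1.41 (SE 0.19), and Por, which passes electrons to these enzymes, by 1.28 (SE 0.11). Cyp2c39 was well above background in no fed and 4 fasted animals and was at least 1.33-fold higher. Conjugation enzymes were lower in 20 of 32 cases and higher in 3, Gstt2 (1.47, SE 0.19), Gstt3 (1.11, SE 0.26) and Sult1a1 (1.32, SE 0.13). Ugt2b1, Gstm2 and Gstm6 changed by -1.16 (SE 0.12), -1.04 (SE 0.16) and -1.62 (SE 0.14), and members of these families share sequence.

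Cyp8b1, the sterol hydroxylase that sets the share of cholic acid, had levels of 2.52, 1.98, 2.54, 2.81 and 2.07 in the 5 fed and 4.89, 5.33, 4.96, 4.67 and 4.55 in the 5 fasted animals, which is a change of 2.50 (SE 0.28) with adjusted p = 4.8e-07, with a gap of 1.74. Cyp7a1, whose enzyme limits the rate of bile acid production, did not pass (-0.74, SE 0.44). Abcb11, the bile salt export pump, changed by -1.22 (SE 0.11), Slc51b by -1.85 (SE 0.44) and Slco1a4 by 1.75 (SE 0.19). Slc22a7, an organic anion carrier, fell from 5.22, 5.82, 5.47, 5.98 and 3.64 in fed to 2.25, 1.44, 1.29, 1.58 and 1.86 in fasted replicates 1 to 5 (-3.54, SE 0.42, adjusted p = 1.14e-06), and fed replicate 5 was the lowest of its group. In all, 8 of 22 bile acid genes rose and 6 fell (63.6%, beside 44.1% of all genes).

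Metal and redox genes were led by the metallothioneins. Mt2 was 2.42, 2.48, 3.12, 3.17 and 3.60 in fed and 7.38, 7.51, 6.47, 7.27 and 7.28 in fasted replicates 1 to 5, a change of 4.22 (SE 0.75) (adjusted p = 0.000118), at a probe on chromosome 8 (mm9, 96697371 to 96697430). Mt1, its neighbour and near copy, had fed levels of 3.81, 3.88, 4.22, 4.67 and 4.72 and fasted levels of 8.14, 8.41, 7.43, 8.03 and 8.19. Of 21 genes of the Nrf2 response 7 rose and 5 fell (57.1%, beside 44.1% of all genes). Nqo1, a quinone reductase, changed by 1.43 (SE 0.19), Hmox1, heme oxygenase, by 1.18 (SE 0.26) and Srxn1 by 0.90 (SE 0.17). Among 22 heme and iron genes 4 rose and 7 fell (50%, beside 44.1% of all genes). Steap4, a metalloreductase, changed by -1.63 (SE 0.35) and Cpox, in heme synthesis, by 0.94 (SE 0.09).

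Acute phase genes varied between fed animals. Of 30 genes 6 rose and 8 fell, a share of 46.7% that was near the 44.1% of all genes. Saa2 (serum amyloid A) lay at 5.95, 8.66, 6.62, 9.79 and 7.00 in fed replicates 1 to 5 and at 4.82, 4.63, 4.10, 4.53 and 4.52 in fasted ones (change -3.08, SE 0.74, adjusted p = 0.00206). Fed replicates 2 and 4 were more than 1.5 above the other fed animals, and every fasted animal lay below every fed one. Saa1, which shares most of its sequence, gave 5.71, 8.38, 6.37, 9.49 and 6.68 and 4.82, 4.53, 4.07, 4.37 and 4.40. Orm1 and Orm2 changed by -1.17 (SE 0.17) and -1.22 (SE 0.21), Lbp, which binds endotoxin, by 1.12 (SE 0.28). Il1rn, the interleukin-1 receptor antagonist, had levels of -6.65, -4.41, -5.63, -4.46 and -4.87 in the 5 fed and -1.26, 0.51, -0.75, -0.80 and -1.04 in the 5 fasted animals, which is a change of 4.54 (SE 0.48) with adjusted p = 2.55e-07, and 1 fed animal had it well above background. Hp (0.11) and Fgb (-0.20) did not pass.

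Of 34 complement and coagulation genes, 21 fell and 3 rose (1 without fed replicate 5 or fasted replicate 1), at a median of -0.26. C9, C6 and C8a of the membrane attack complex changed by -1.19 (SE 0.12), -1.15 (SE 0.12) and -1.09 (SE 0.13), and F11 by -0.93 (SE 0.08). Pros1, F12 and F9 were the ones that rose (0.61, 0.12 and 0.16), and the calls of F12 and F9 were lost when any of 2 and 4 single animals was left out (0.10 to 0.11 and 0.13 to 0.15). Interferon and antigen presentation genes were lower in 14 of 38 cases and higher in 2, Rsad2 (0.65, SE 0.20) and Usp18 (0.61, SE 0.23, a call lost when any of 8 single animals was left out, 0.52 to 0.63). The share of this list that changed, 42.1%, was near the 44.1% of all genes. Of the class II genes H2-Ab1 changed by -0.89 (SE 0.20), H2-Eb1 by -0.78 (SE 0.19) and Cd74 by -0.59 (SE 0.14).

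Cell cycle genes fell in 23 of 36 cases, 12 of them at least 2-fold, and 2 rose, at a median of -0.57. Mcm5, part of the helicase that opens DNA for replication, fell from -0.47, 0.19, -0.48, -1.22 and -0.58 in fed to -3.32, -2.26, -2.92, -3.16 and -2.56 in fasted replicates 1 to 5 (-2.33, SE 0.37, adjusted p = 3.19e-05). Ccne1 and Mcm6 changed by -2.31 (SE 0.26) and -1.89 (SE 0.25). Cdk1 was well above background in 4 fed and no fasted animals and was at least 1.94-fold lower. Ccnd1, the cyclin that mitogens and nutrients raise, was 1.77, 1.86, 1.67, 1.27 and 1.84 in fed and 0.04, 0.24, 0.66, 0.37 and 0.64 in fasted replicates 1 to 5, a change of -1.29 (SE 0.15) (adjusted p = 1.21e-06). Mki67, a marker of cycling cells, lay at -1.30, -1.45, -1.24, -1.88 and -1.64 in fed replicates 1 to 5 and at -3.24, -3.20, -2.82, -2.43 and -2.84 in fasted ones (change -1.41, SE 0.30, adjusted p = 0.000655). Top2a and Uhrf1 were well above background in all 5 fed and in no fasted animal, and were at least 2.92-fold and at least 6.2-fold lower. Cdkn1a (p21), an inhibitor of the cycle, had levels of 0.32, -0.12, 0.78, 0.00 and -0.20 in the 5 fed and 2.84, 3.33, 3.19, 3.45 and 2.62 in the 5 fasted animals, which is a change of 2.93 (SE 0.36) with adjusted p = 1.5e-06, and Ccnd3 was the other gene that rose (0.37, SE 0.09).

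Markers of cell types were counted to show what else moved with the groups. Over all genes 44.1% changed. The share was 33.3% for hepatocyte and bile duct, 35.7% for macrophage, 37.5% for red cell, 41.7% for lymphocyte and 44.4% for neutrophil and monocyte markers. These shares were near or below that of all genes. For endothelial markers it was 53.3%, for fibroblast and stellate markers 73.3%, and for adipocyte and pancreatic markers 50%. Fewer cells of a type and less RNA per cell cannot be told apart in whole liver. Of 15 hepatocyte markers 3 rose and 2 fell, and the mean of the list, relative to each gene's mean over the 10 animals, lay between -0.15 and 0.02 in fed and between 0.02 and 0.09 in fasted animals. Endothelial markers were higher in 8 of 15 cases and none was lower. Lyve1, a receptor of sinusoidal endothelium, rose from -1.25, -1.64, -1.52, -1.60 and -1.73 in fed to -0.01, 0.36, -0.09, 0.06 and 0.19 in fasted replicates 1 to 5 (1.65, SE 0.14, adjusted p = 2.03e-08), Oit3 changed by 0.84 (SE 0.16), Pecam1 by 0.62 (SE 0.12), and Kdr did not pass (0.10, SE 0.10). The list mean was -0.41 to -0.03 in fed animals and -0.08 in fasted replicate 1 against 0.22 to 0.29 in the other fasted animals.

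Macrophage markers rose in 1 of 14 cases (Marco, 0.95) and fell in 4 (Clec4f -0.39, Timd4 -0.50, Cd5l -0.51 and Mpeg1 -0.48), and the call of Clec4f was lost when any of 5 single animals was left out (-0.40 to -0.24). The share that changed, 35.7%, was below the 44.1% of all genes. Without fasted replicate 1 the macrophage list had 4 rises and 3 falls. The mean of these markers was -0.58 in fasted replicate 1 and 0.05 to 0.14 in the other fasted animals, against -0.14 to 0.28 in fed ones. Fibroblast and stellate markers split, 6 higher and 5 lower of 15. Col3a1, a fibrillar collagen, was 2.38, 2.41, 1.79, 1.95 and 2.83 in fed and 1.07, 0.24, 0.15, 0.66 and -0.34 in fasted replicates 1 to 5, a change of -1.91 (SE 0.26) (adjusted p = 5.77e-06), and Col1a1 changed by -1.55 (SE 0.32), while Hand2 and Rgs5 were among those that rose (0.57 and 0.55). Of 9 neutrophil and monocyte markers 4 fell and none rose, with Ccr2 at -0.80 (SE 0.23), and the list means were 0.02 to 0.37 in fed animals and below 0.02 in all fasted ones, with -0.43 the lowest. Without fed replicate 2, fed replicate 3, fasted replicate 2 or fasted replicate 4 it had 2 falls. Lymphocyte markers fell in 4 of 12 cases and rose in 1, bile duct markers in 2 and 1 of 9 (1 to 3 and 0 to 1 when single animals were left out), adipocyte markers in 2 and 3 of 10, pancreatic ones in 2 and 1 of 6, and red cell ones in 3 and 0 of 8. The part of these cells in the changes of the interferon, class II and cell cycle genes was not tested.

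Hepatocytes differ along the lobule, and genes of its ends were counted apart. Of 20 periportal genes 10 rose and 3 fell, at a median of 0.35, and of 20 pericentral genes 2 rose and 9 fell (4 and 7 without fed replicate 4), at a median of -0.28. These shares were 65% and 55%, beside 44.1% of all genes. Pericentral Oat (1.41) and Aldh3a2 (1.45) rose, and Rgn and Slc13a3 were among those that fell (-1.46 and -0.98). Periportal Serpina12 (vaspin) lay at -1.78, -0.14, -2.09, -0.72 and -1.47 in fed and -6.64, -6.70, -4.44, -6.46 and -6.67 in fasted replicates 1 to 5, and Cdh1, E-cadherin, fell by 1.52 (SE 0.17). Several of these genes also sit in the urea cycle and gluconeogenesis lists.

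Genes seen in only 1 of the groups have a bound in place of a fold. The dim group is set, array by array, at its own signal or, if that is lower, at the dimmest signal that any probe well above background had. In 101 genes that rose no fed array was well above background, and in 80 that fell no fasted array was. Slc6a4, the serotonin transporter, lay at -6.02, -5.35, -4.56, -3.97 and -3.95 in fed and -2.65, -2.25, -2.27, -3.03 and -3.02 in fasted animals and was at least 2.98-fold higher. Dkk4, a secreted WNT inhibitor, was at least 5.72-fold lower and Serpina5 at least 4.67-fold lower. Other changes rest on a group in which only some animals were well above background: 2 of 5 fed animals for Abcd2 and Hes1, 3 for Nipal1, and 1 of 5 fasted animals for Grb10 and Serpina12, 3 for Slc2a4 and 4 for Mycn, Mthfd2 and Slc51b. Ccr2 was well above background in 3 fed and 2 fasted animals.

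Other large changes fell outside the pathways above. Krt23, a keratin, lay at -1.37, -1.87, -0.94, -0.58 and -0.90 in fed replicates 1 to 5 and at 2.60, 3.84, 3.17, 2.69 and 3.0 in fasted ones (change 4.19, SE 0.24, adjusted p = 1.3e-10), and Unc79, a subunit of a sodium leak channel, had levels of -5.91, -6.15, -4.85, -5.63 and -5.67 in the 5 fed and -2.27, -1.90, -1.53, -1.71 and -1.76 in the 5 fasted animals, which is a change of 3.81 (SE 0.21) with adjusted p = 7.94e-11. Fed and fasted animals were apart in both genes, but 4 of the 5 fed Unc79 signals were not well above background. The 2 probes lie on chromosome 11 (mm9, 99339393 to 99339452) and chromosome 12 (mm9, 104421865 to 104421924). Nipal1, a magnesium transporter, rose from -3.55, -5.52, -2.46, -6.02 and -1.98 in fed to 0.61, 0.92, 0.11, 0.12 and 0.50 in fasted replicates 1 to 5 (4.36, SE 0.59, adjusted p = 4.99e-06), with fed animals spread over 4.04. Serpina9 changed by -5.33 (SE 0.35), Cyp26a1, which degrades retinoic acid, by -3.79 (SE 0.62) and Slc2a4, a glucose transporter better known in muscle and fat, by -3.90 (SE 0.56).

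Fed animals differed among themselves more than fasted ones in the lipogenesis and omega-oxidation lists, though not in all lipid lists and not only in these. For fatty acid and triglyceride synthesis the list mean, relative to each gene's mean over the 10 animals, was 0.51, 0.99, 0.86, 0.15 and 1.33 in fed replicates 1 to 5 (SD 0.45) and -0.75, -0.75, -0.78, -0.74 and -0.81 in fasted ones (SD 0.03). For omega-oxidation it was -0.52, -1.25, -0.76, -0.35 and -1.30 in the fed animals (SD 0.43) and 0.90, 0.94, 0.86, 0.73 and 0.76 in the fasted ones (SD 0.09). The SD was 0.17 in fed and 0.16 in fasted animals for the cholesterol list, and 0.33 and 0.12 for the acute phase list. Ordered by lipogenesis from high to low the fed animals ran 5, 2, 3, 1, 4, and ordered by omega-oxidation from low to high they ran the same. The order was read from 5 animals with the values in view and carries no test.

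The pentose phosphate list was also highest in fed replicate 5 (0.75) and lowest in replicate 4 (-0.04), with replicates 2 and 3 close together (0.35 and 0.36), and mitochondrial beta-oxidation lay between -0.68 (replicate 2) and -0.29 (replicate 4). Fed replicate 5 was also apart in the integrated stress response (0.32 against -0.36 to -0.13), and fed replicate 4 in the acute phase (0.48, and 0.12 in replicate 2, against -0.36 to -0.13) and the cell cycle (0.06 against 0.33 to 0.52). The share of probes well above background on any array of an animal was lowest in fed replicate 4 and next lowest in fed replicate 5 (53.0%), against 56.4% to 57.4% in the other fed and 53.4% to 59.8% in the fasted animals. This measure favours the animals hybridised on a pair of arrays. By single array, fed replicate 3 had 51.2% and 56.4%, and fasted replicate 1 had 55.1% and 57.8%. One array of fed replicate 3 thus lay below fed replicate 5. The part of signal quality in the order of the fed animals was not tested.

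Without fed replicates 4 and 5, mitochondrial beta-oxidation kept its 20 rises, and 19 of 23 peroxisomal genes rose. Fatty acid and triglyceride synthesis then held 19 lower and 4 higher genes at a median of -1.39, cholesterol 18 lower and 2 higher, protein folding 22 lower and none higher, and the cell cycle 23 lower and 2 higher. Proteasome genes rose in 30 of 34 cases. Interferon genes held 10 lower and none higher, against 14 and 2 with all animals, and male-biased genes 10 lower, against 13.

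**Figure D4:**
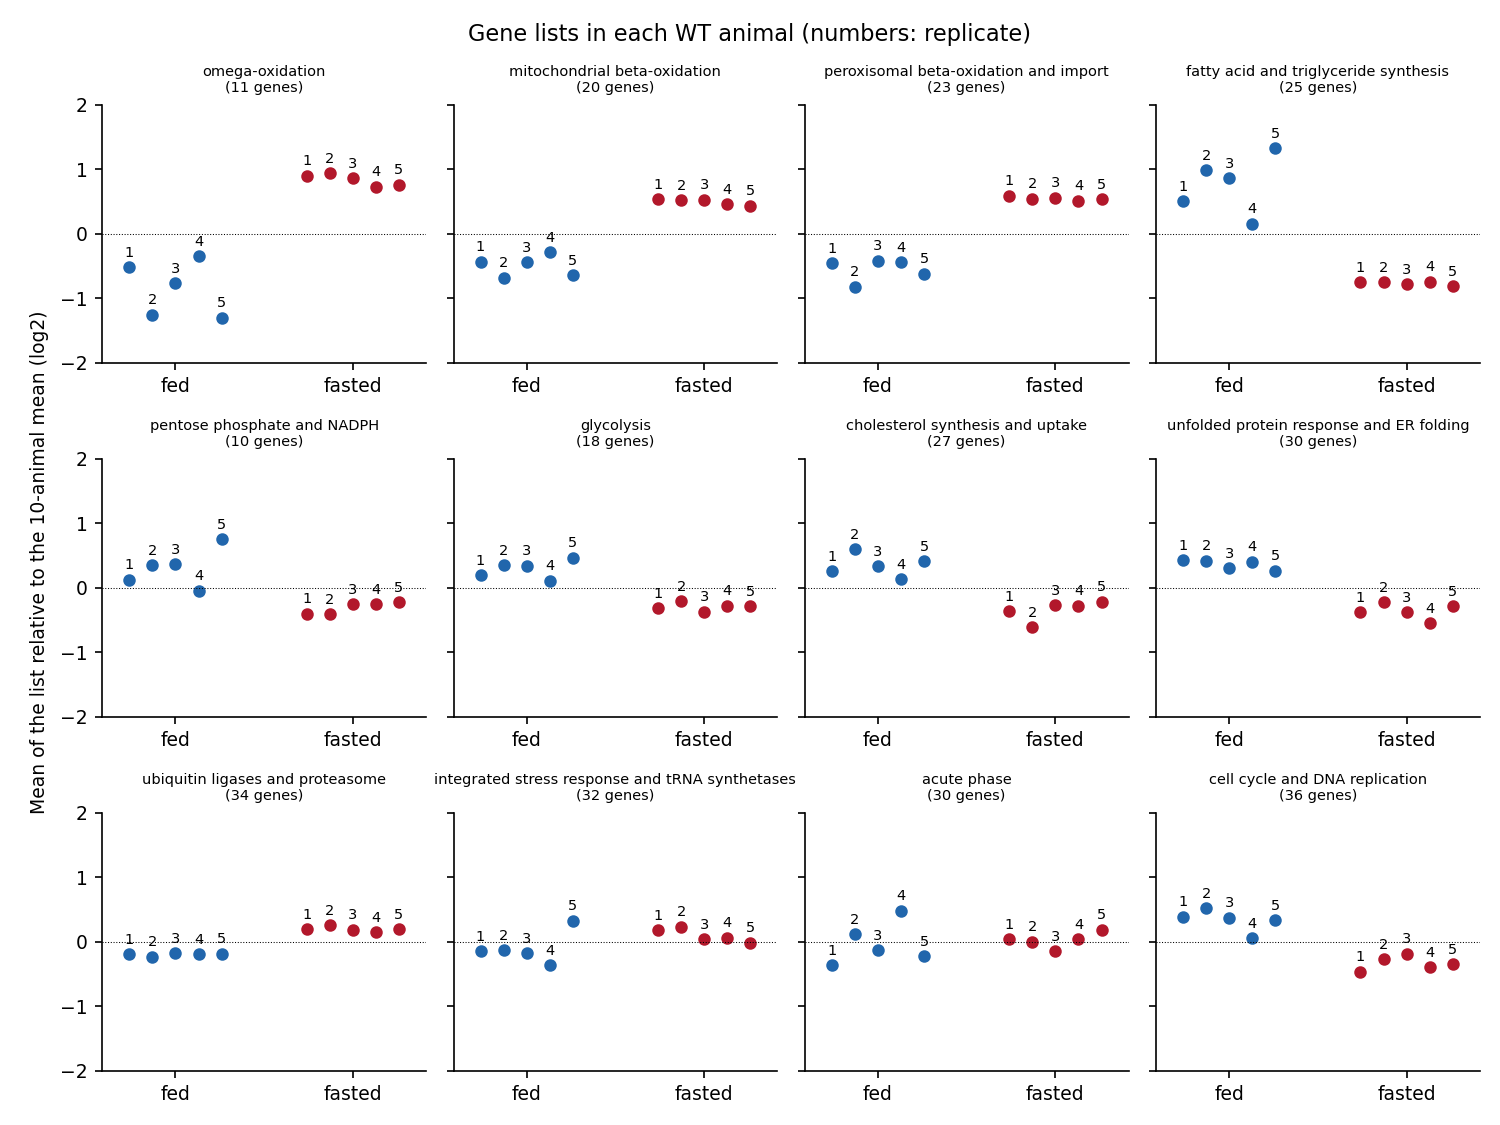
Mean of each gene group per WT animal (log2, relative to each gene's mean over the 10 animals) in fed and fasted mice, numbered by replicate. In lipogenesis and omega-oxidation the fed animals are spread while the fasted animals lie close together, and fed replicates 4 and 5 are at opposite ends.

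Single genes varied most in a few animals. Among fed animals Zdhhc22 lay at -0.11, 3.66, -0.11, -0.08 and -0.23, where replicate 2 stood apart, and fasted levels were -0.61, -0.90, -0.41, -0.81 and -0.00. Ccl27a, a chemokine, lay at 1.16, -3.33, -2.56, -2.29 and -3.22 in fasted replicates 1 to 5, and replicate 1 alone was high, against -1.62, -2.29, -1.25, -2.16 and -1.52 in the fed animals. Neither change passed.

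The LKO animals show which WT changes differed between genotypes. The WT change minus the LKO change passed in 3184 of 17331 genes (18.4%). Among the 7645 genes that changed in WT it passed in 1979 (25.9%), 1216 that rose and 763 that fell. Of the 1200 that changed at least 2-fold, 368 differed, 256 that rose and 112 that fell. These counts describe the LKO and WT livers as labelled, and both share the fit.

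Fat oxidation genes held many such differences, in 18 of the 20 changed mitochondrial genes and 20 of the 21 changed peroxisomal genes. Cpt1a was not among them, with an LKO change of 1.66 beside 1.55 in WT. Ehhadh changed by 3.42 in WT and -0.37 in LKO, and Pdk4 by 4.13 and 0.28. G0s2 changed by 3.60 and -0.93, Krt23 by 4.19 and 0.53, and Unc79 by 3.81 and -0.00. Hsd3b5, Ihh and Mycn fell further in WT (differences of -2.84, -2.25 and -2.25), and Srebf1 fell less (-3.16 against -3.69, difference 0.53).

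Beside the 25.9% of all changed genes that differed between genotypes, the counts in other lists were 6 of 24 in fatty acid synthesis, 9 of 21 in cholesterol, 3 of 25 in protein folding, 2 of 25 in the cell cycle and 5 of 31 ribosomal protein genes. Fgf21 rose in WT by 5.53 and had an LKO change of 6.00, a difference of -0.47 (SE 0.76) that did not pass. Cidec (5.33 and 4.25) and Thrsp (-4.50 and -4.93) did not pass either, and a p that misses the threshold does not show that genotypes respond alike. Among changed interferon genes 12 of 16 differed, and among changed endothelial markers 7 of 8.

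**Figure D5:**
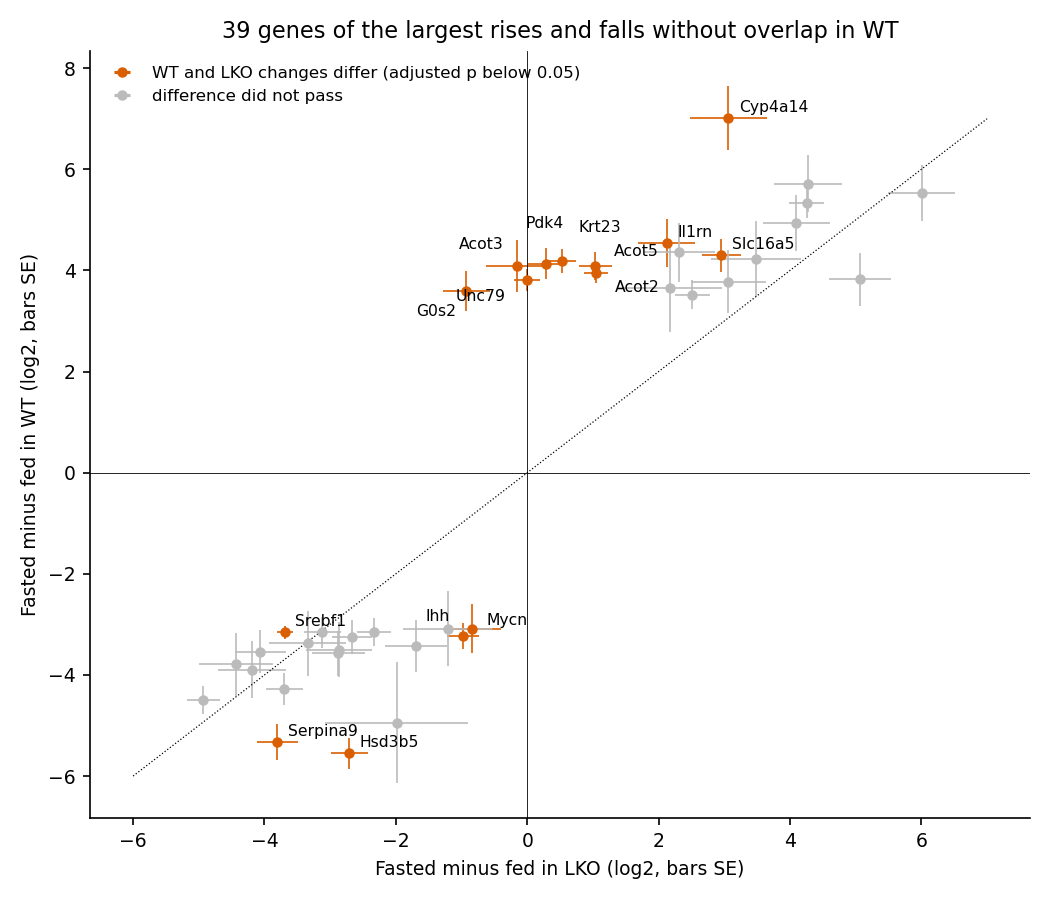
Fasting change in WT (vertical, log2, bars SE) against that in LKO (horizontal, log2, bars SE) for 39 of the 40 genes made up of the 20 largest rises and 20 largest falls without overlap in WT, coloured where the difference passed (adjusted p below 0.05, limma), with the line of equal change dotted. Acot3, Pdk4, Krt23 and Unc79 lie near 0 on the LKO axis, and Srebf1 lies beyond the line on the LKO side.

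Several genes were read by more than 1 probe. Of 7185 genes with at least 2 kept probes, 2434 had 2 or more probes that changed, and in 153 of these the probes changed in opposite directions. Dnajb11, a chaperone of the endoplasmic reticulum, fell by 0.85 and by 0.76 at 2 probes and rose by 1.79 at another. Zfp536 rose by 2.40 and fell by 0.91, Fryl fell by 1.36 and rose by 1.17, and Zfp791 fell by 1.18 and rose by 1.19. The value given above for a gene is that of its brightest kept probe, and the exon or transcript end that each probe reads was not analysed here.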

How the data were processed

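Liver RNA of 22 mice was measured on 24 one-colour Cy3 Agilent arrays, 8 on each of 3 slides. The members and gene lists were chosen with earlier results of these data known. The scanner files hold fluorescence intensity values, from which a fitted spatial background surface was subtracted, with multiplicative detrending, in Agilent Feature Extraction 10.10.1.1, per the file headers. A table of log2 values, deposited by the authors, served as an alternative, and the submitters' processing notes name limma. RNA amounts and RNA quality were not analysed here.

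Control spots and outlier flags were dropped, replicate spots averaged per probe, and log2 processed signals set relative to each array's 75th percentile. Arrays of one animal were averaged. Of 46291 probes with a symbol, 28360 passed a minimum of 5 animals, out of 22, with signal well above background, and the brightest kept probe stood for a gene, which gave 17331 genes. Of 32994 probes whose transcript was found in the RefSeq reference table, 31459 had the same symbol there. The 22 animals entered a single limma 3.58.1 model (R 4.3.3) that gives each group its own mean, with moderated tests and Benjamini-Hochberg adjustment over all genes. Scripts were tested on simulated data.

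Gene lists have no test of their own: members that rose or fell were counted. Each count is to be read beside the 44.1% of all genes that changed. Named genes are the 20 largest rises and falls without overlap, the largest bounds, the leading members of each list and its exceptions, the genes with the largest SD, and those whose probes disagreed. Some genes that the rule permits are not named or not reported here, and further list members were chosen with values in view. Alternatives were another normalization, background correction, filter, probe rule, block or table, and each of the 10 WT animals left out in turn. Of the LKO animals only LKO_fed replicate 3 was left out. The number of animals limits the precision.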

Additional observations from a re-analysis of the deposited data

Results flagged for a closer look

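The fasting change differed between WT and LKO (interaction term in limma, adjusted p below 0.05) for 15 of 39 of the 40 genes made up of the 20 largest rises and 20 largest falls without overlap in WT, given here as the WT change minus the LKO change. It was 4.53 for G0s2, 4.24 for Acot3, 3.96 for Cyp4a14, 3.85 for Pdk4, 3.82 for Unc79 (1 fed WT animal well above background), 3.66 for Krt23, 3.05 for Acot5, 2.91 for Acot2, 2.41 for Il1rn, 1.34 for Slc16a5 and 0.53 for Srebf1. It was -2.84 for Hsd3b5, -2.25 for Ihh, -2.25 for Mycn and -1.52 for Serpina9.

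A single animal stood apart from the other 4 of its group (Dixon's ratio above 0.71) in 29 of 648 groups of values over the genes named here, which is 4.48%. Chance flags about 1 in 20 groups. Fasted replicate 1 was the one apart at a level of 1.16 for Ccl27a, 3.44 for Clec4f, 5.77 for Ghr, 2.10 for Oit3 and -2.18 for Timd4. Fasted replicate 2 was the one apart at a level of 0.51 for Il1rn, 6.76 for Map1lc3b and 1.5 for Stard4. Fasted replicate 3 was the one apart at a level of 5.38 for Amacr, 6.47 for Mt2 and -4.44 for Serpina12. Fasted replicate 4 was the one apart at a level of -5.45 for Bhlha15 and 4.10 for Ugt2b1. Fasted replicate 5 was the one apart at a level of 6.46 for C9. Fed replicate 2 was the one apart at a level of 2.07 for Atf6, 1.5 for Dgat1, 0.76 for Egr1, 0.44 for Oxct1, 7.76 for Pck1, 5.10 for Sqle and 3.66 for Zdhhc22. Fed replicate 3 was the one apart at a level of 0.37 for Rsad2. Fed replicate 4 was the one apart at a level of -4.63 for Cdk1 and 6.03 for Dlst. Fed replicate 5 was the one apart at a level of 6.02 for Canx, -0.31 for Fgf21, 7.25 for Igf1, 0.12 for Phgdh and 3.79 for Srxn1. For the Kupffer cell and macrophage list, the mean of fasted replicate 1 was -0.58, with the nearest animal at 0.05. For the liver endothelium list, the mean of fasted replicate 1 was -0.08, with the nearest animal at 0.22.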

How the results depend on the processing

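Counts of changed genes moved with the settings, and their direction rarely did. The 7645 genes that passed were between 6794 (replicate block on the 10 WT animals) and 8102 (without LKO_fed replicate 3) under the other settings, and at most 11 of them passed in the opposite direction in any one. Genes changed at least 2-fold fell from 1200 to 683 with normexp background correction and to 778 in the deposited log2 table. Of these, rises went from 647 to 384 and 408, and falls from 553 to 299 with normexp. Leaving out single WT animals gave 7022 to 7323 changed genes, 3619 to 3826 rises, 3363 to 3527 falls, 1130 to 1248 changes of at least 2-fold (612 to 678 rises and 518 to 572 falls) and 2753 to 3069 differences between WT and LKO. The 3184 differences between WT and LKO became 3993 without LKO_fed replicate 3. With no filter on dim probes 2327 genes differed between genotypes. Without fed replicates 4 and 5, an alternative chosen after seeing the data, 6675 genes passed.

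Of the 324 genes named, 278 kept their direction and side of the threshold in every setting. With the mean of a gene's probes in place of the brightest one, the change of Aars was 0.62, of Atf6 -0.07, of Dnajb11 0.06, of Fryl -0.14 and of Igf1 -0.63, each opposite in sign to its reported value. Calls lost without single animals were those of Acsl4 (each animal but fed replicate 4 and fasted replicate 2), Usp18 (each but fed replicate 2 and fasted replicate 2), Calr (each but fed replicate 3, fasted replicate 2 and fasted replicate 5), Asns (fed replicates 1, 3 and 4, fasted replicates 1, 2 and 4), Slc2a2 (fed replicates 2, 3 and 5, fasted replicates 1 and 2), Clec4f (fed replicates 2, 3 and 4, fasted replicates 1 and 4), F9 (fed replicates 1 and 5, fasted replicates 1 and 5), Atf6 (fed replicate 2, fasted replicates 2 and 5), Mars (fed replicates 2 and 5, fasted replicate 3), F12 (fed replicate 5, fasted replicate 1) and Pecr (fasted replicate 2). The median of the respiratory chain list (0.07) lay between -0.02 and 0.09 over the settings. The cause was not tested. Replicate numbers name animals only: deviations of same-numbered fed and fasted animals correlated between -0.19 and 0.06, and the replicate block gave 6794 genes. A probe not well above background gives only a bound.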
